A study of Mus musculus with 15 samples.

Results

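The chromatin of 4 stretches of the mouse genome that hold 10 genes of secreted liver proteins was followed through maps of hepatocytes, the main cell type of the liver. The genes were Alb, Afp and Afm on chromosome 5, Fga, Fgb and Fgg on chromosome 3, Apoa1, Apoc3 and Apoa4 on chromosome 9, and Apob on chromosome 12. Each group of neighbours was taken as 1 fixed window of the mm9 genome build, by a rule that names the genes and gives the coordinates. The windows were chosen with earlier results of these data known. The 4 windows covered 710 kb, or 355 of the 1236163 bins of 2 kb on the autosomes. The Alb window ran from 90850001 to 91020000 on chromosome 5 (170 kb, 85 bins), and the Fga window from 82780001 to 82920000 on chromosome 3 (140 kb, 70 bins). The Apoa1 window ran from 45980001 to 46130000 on chromosome 9 (150 kb, 75 bins), and the Apob window from 7900001 to 8150000 on chromosome 12 (250 kb, 125 bins).

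The maps came from srHC-seq, in which crosslinked chromatin is sonicated and the DNA is separated by fragment size, so that chromatin that resists sonication can be told from chromatin that breaks readily. The first group was hepatocytes of mice at postnatal day 14 (P14) with the genotype Alb-Cre;Ezh1-/-;Ezh2f/f, named P14 knockout below (2 males and 3 females). In these mice Ezh1 is absent from all cells, and Ezh2 is removed where the Alb promoter drives Cre, which is in hepatocytes. The second group was wild-type hepatocytes of mice aged 2 months (2 males and 3 females), and the third was P14 wild type (3 males and 2 females). Ezh1 and Ezh2 encode the enzymes of PRC2, which places a repressive methyl mark on histone H3. Each group of 5 mice was represented by 1 map that gives every 2 kb bin a class, euch (open), int (intermediate) or het (closed). The maps hold no read counts and no RNA, so the depth behind a call is unknown, deletion of Ezh2 could not be checked here, and the cell type could not be checked against marker genes. With 1 map per group no difference below had a replicate check or a p-value, and males and females were not equally represented across groups. Neighbouring bins are parts of the same domains and are not independent.

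Hepatocytes make most of the proteins of blood plasma. Alb encodes albumin, the main carrier protein of plasma, Afp encodes alpha-fetoprotein, its fetal counterpart, whose gene is switched off in the liver after birth, and Afm encodes afamin, a vitamin E-binding protein of the same family. Fga, Fgb and Fgg encode the alpha, beta and gamma chains of fibrinogen, which forms the clot. Apoa1 encodes the main protein of high-density lipoprotein, Apoc3 an inhibitor of triglyceride clearance, Apoa4 a lipid-binding protein made mainly in the intestine, and Apob the structural protein of very-low-density and low-density lipoprotein.

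In the RefSeq gene table, which is for another build (GRCm38), the members of each window are neighbours. Alb, Afp and Afm follow each other over 92.7 kb, Fgg, Fga and Fgb over 42.1 kb, and Apoa1, Apoc3 and Apoa4 over 14.8 kb, while Apob alone spans 39.2 kb. All windows are thus longer than the genes they hold, and the position of each gene inside its mm9 window was not placed here. Values are therefore given for windows and bins, not for single genes or promoters.

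The sequences just upstream of Alb, Afp and Afm are shown because the whole window of these 3 genes was called open in 2 of the 3 maps. The bins that hold their promoters were thus called euch there, wherever in the window they lie. This is the class of a bin, and nothing was measured at a promoter. The sequences are the 250 bases before the transcript start from RefSeq, build GRCm38.p6, plus strand, at chr5:90460620-90460869 for Alb, chr5:90490464-90490713 for Afp and chr5:90518699-90518948 for Afm. These positions are not mm9 positions. Capitals mark the letters GTTAAT on either strand, the half-site of HNF1, a transcription factor of hepatocytes.
Alb: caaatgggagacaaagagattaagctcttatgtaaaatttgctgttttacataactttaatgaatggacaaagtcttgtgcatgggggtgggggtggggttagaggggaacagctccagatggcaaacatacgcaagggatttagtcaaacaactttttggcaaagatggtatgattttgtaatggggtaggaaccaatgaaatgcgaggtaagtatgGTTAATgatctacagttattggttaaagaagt
Afp: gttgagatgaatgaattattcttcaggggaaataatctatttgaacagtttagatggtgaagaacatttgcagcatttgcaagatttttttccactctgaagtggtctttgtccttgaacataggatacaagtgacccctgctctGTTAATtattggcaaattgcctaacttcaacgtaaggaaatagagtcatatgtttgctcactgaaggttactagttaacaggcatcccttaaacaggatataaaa
Afm: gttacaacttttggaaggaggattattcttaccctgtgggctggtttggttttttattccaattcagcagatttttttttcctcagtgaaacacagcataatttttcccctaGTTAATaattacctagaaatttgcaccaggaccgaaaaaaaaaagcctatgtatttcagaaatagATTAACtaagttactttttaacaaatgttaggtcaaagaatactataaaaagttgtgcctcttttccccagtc

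The half-site began 32 bases before the start in Alb, 105 bases before it in Afp, and 138 and 73 bases before it in Afm. Of the 9 members with a promoter in the table (all but Apoc3), 5 (55.6%) held it within the 250 bases before and 50 bases after the start, the others being Fga and Fgb. Over all 32851 promoters of the table the share was 7.10%. A CCAAT box (letters CCAAT, either strand) was in 3 of the 9, those of Alb, Afp and Afm (33.3%), which is no more often than in all promoters (37.4%). A TATA box (letters TATAAA, either strand) was also in 3 of the 9, those of Afp, Afm and Apob (33.3%), against 13.6% of all promoters. These motifs were picked after the promoters had been read, and a match is a description of the letters, not of binding.

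The Alb window was the most open of the windows in each map. All 85 bins were euch in the P14 knockout and all 85 at 2 months, against 80 in P14 wild type (94.1%). Over all autosomal bins the euch share was 42.4% in the knockout and 43.0% at 2 months, against 42.7% in P14 wild type. The window of Afp, a gene that adult liver keeps silent, thus held no int or het bin at 2 months. Among autosomal stretches of the same length, 3.02% were fully euch in the knockout and 6.82% at 2 months, and 5.47% had at least the P14 wild-type share. The 5 bins that were not open in P14 wild type lay side by side, from 90962001 to 90972000, the first 2 int and the other 3 het. These 5 bins, 5.88% of the window, moved towards euch both in the P14 knockout and at 2 months against P14 wild type, and none moved towards het. Both comparisons use the same P14 wild-type map.

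**Figure D1:**
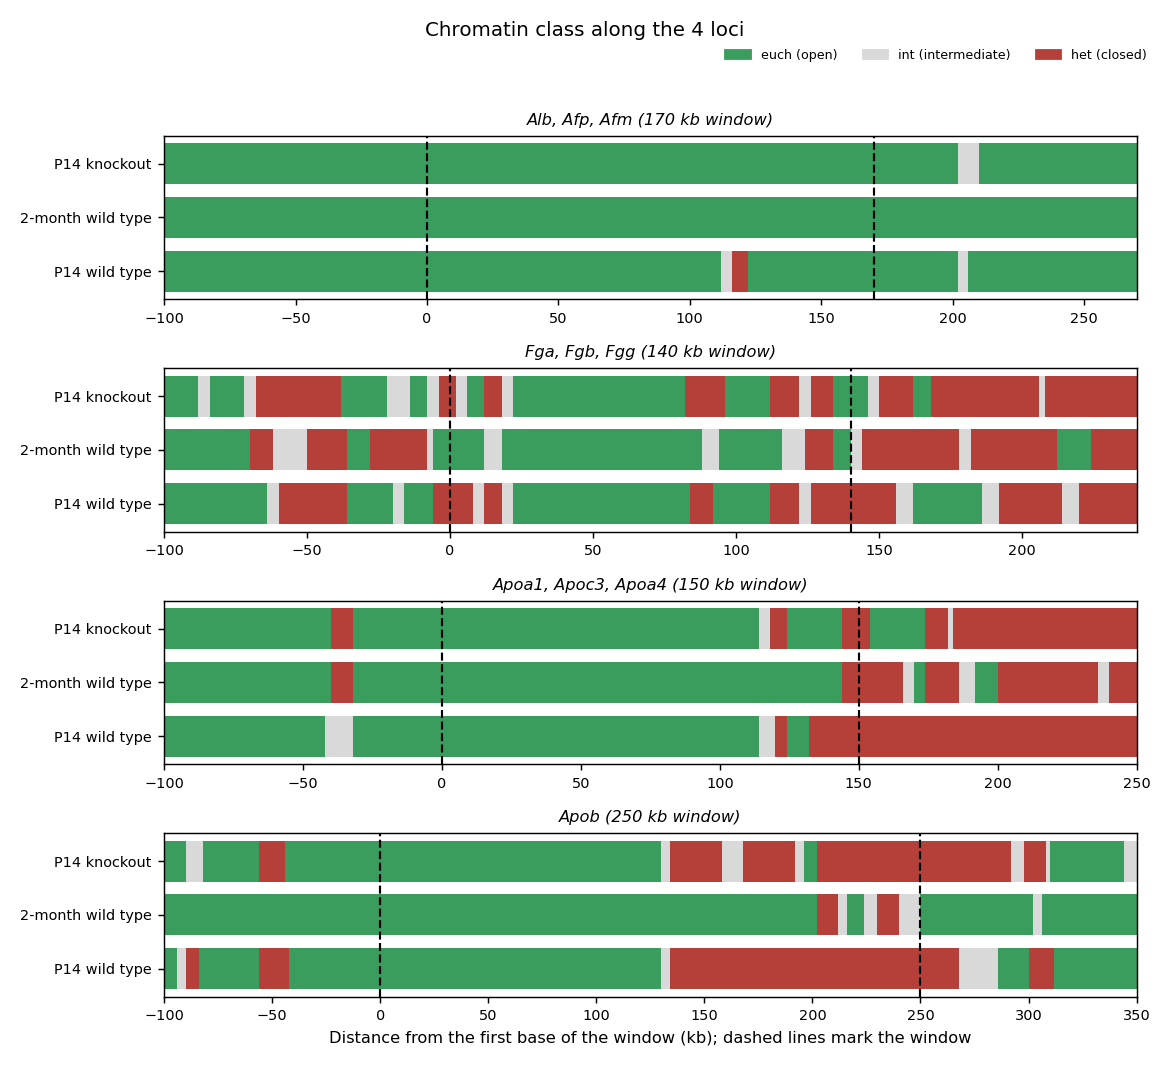
Each row is 1 map and each panel 1 window with 100 kb on either side, and colour gives the class (green euch, grey int, red het) along the distance in kb from the window's first base. The Alb window is open throughout in the P14 knockout and at 2 months, and in the Apob window the open stretch reaches farther at 2 months than in both P14 maps.

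The open domain with the most bases in the Alb window began at the same base, 90612001, in all 3 maps. It covered all 170 kb of the window in the P14 knockout and at 2 months, against 112 kb in P14 wild type. Its whole length was 440 kb in the knockout and 638 kb at 2 months, against 350 kb in P14 wild type, where the closed gap ended it at 90962000. Of autosomal euch domains, 0.108% in the knockout, 0.104% at 2 months and 0.168% in P14 wild type were at least as long as that domain. It was picked for the most bases in the window, which favours long domains, while each autosomal domain was counted once. The 100 kb on the low-coordinate side were euch in all 50 bins of every map. On the high-coordinate side 46 of 50 bins were euch in the knockout and 50 at 2 months, against 48 in P14 wild type, and no bin there was het. Open chromatin in this part of chromosome 5 was thus not limited to the window.

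The Fga window, with the genes of all 3 fibrinogen chains, was the most broken up. Its bins were euch in 44 of 70 cases in the P14 knockout (62.9%) and in 55 at 2 months (78.6%), against 41 in P14 wild type (58.6%). The direction of these euch shares depended on the borders and bins used. With 50 kb added on each side they were 50.8% in the knockout and 51.7% at 2 months, against 55.0% in P14 wild type, so both comparisons turned round. With 10 kb trimmed from each end the knockout comparison turned round (65.0% in the knockout and 78.3% at 2 months, against 68.3% in P14 wild type). With bins of 10 kb the knockout and P14 wild type were equal at 57.1%, with 85.7% at 2 months. Het bins of the window as given numbered 20 in the knockout and 5 at 2 months, against 23 in P14 wild type. The window was cut into 12 domains in the knockout and 8 at 2 months, against 10 in P14 wild type. Of autosomal stretches of this length, 32.8% had at least as large a euch share in the knockout, 27.0% at 2 months and 33.3% in P14 wild type, so this window was not among the most open of the genome.

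A central open block of the fibrinogen window was present in all maps. It ran from 82802001 to 82862000 in the P14 knockout (60 kb) and from 82798001 to 82868000 at 2 months (70 kb), against 82802001 to 82864000 in P14 wild type (62 kb). The 60 kb open in all 3 maps is longer than the 42.1 kb span of the 3 fibrinogen genes, though the genes were not placed within it. What differed lay around this block. At 2 months the stretch from 82780001 to 82802000 (11 bins) held 8 euch and 3 int bins, against 4 int and 7 het bins in P14 wild type. The 5 bins from 82892001 to 82902000 comprised 2 euch and 3 int bins at 2 months, against 5 het bins in P14 wild type. The 5 bins from 82864001 to 82874000 also differed at 2 months, 4 of them towards euch and 1 towards het. In the knockout the longest differing stretch ran from 82782001 to 82792000, where 3 bins were euch and 2 int, against 2 int and 3 het in P14 wild type.

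Outside the fibrinogen window the maps did not follow the window's direction. On the high-coordinate side 6 of 50 bins were euch in the P14 knockout and 6 at 2 months, against 12 in P14 wild type. Closed bins there numbered 41 and 40, against 29. On the low-coordinate side 23 bins were euch in the knockout and 22 at 2 months, against 31 in P14 wild type. The higher open share of the window at 2 months therefore stood beside a lower one in the 100 kb on either side.

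The Apoa1 window, with 3 apolipoprotein genes, was euch in 67 of 75 bins in the P14 knockout (89.3%) and in 72 at 2 months (96.0%), against 61 in P14 wild type (81.3%). The share of autosomal stretches at least as open was 12.0% in the knockout, 11.5% at 2 months and 15.3% in P14 wild type. The first 114 kb of the window were open in all maps, as part of a domain that began at 45948001 in all 3 and ended at 46094000 in both P14 maps and at 46124000 at 2 months. The stretch from 46094001 to 46104000 was 2 int and 3 het bins in the knockout and euch in all 5 bins at 2 months, against 3 int and 2 het bins in P14 wild type. The 6 bins from 46112001 to 46124000 were euch both in the knockout and at 2 months, and het in P14 wild type.

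Those 6 bins are the start of a het domain of 160 kb in P14 wild type, from 46112001 to 46272000, most of which lies beyond the Apoa1 window. Of its 80 bins, 18 were euch in the P14 knockout (22.5%) and 20 at 2 months (25.0%). P14 wild type had 687 autosomal het domains of at least this length, and over all their bins 1.92% were euch in the knockout and 2.49% at 2 months. A euch share at least as large as here was found in 4 of the 687 in the knockout and in 5 at 2 months, this domain included. In the 100 kb on the high-coordinate side of the window, 39 of 50 bins were het in the knockout and 37 at 2 months, against all 50 in P14 wild type.

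**Figure D2:**
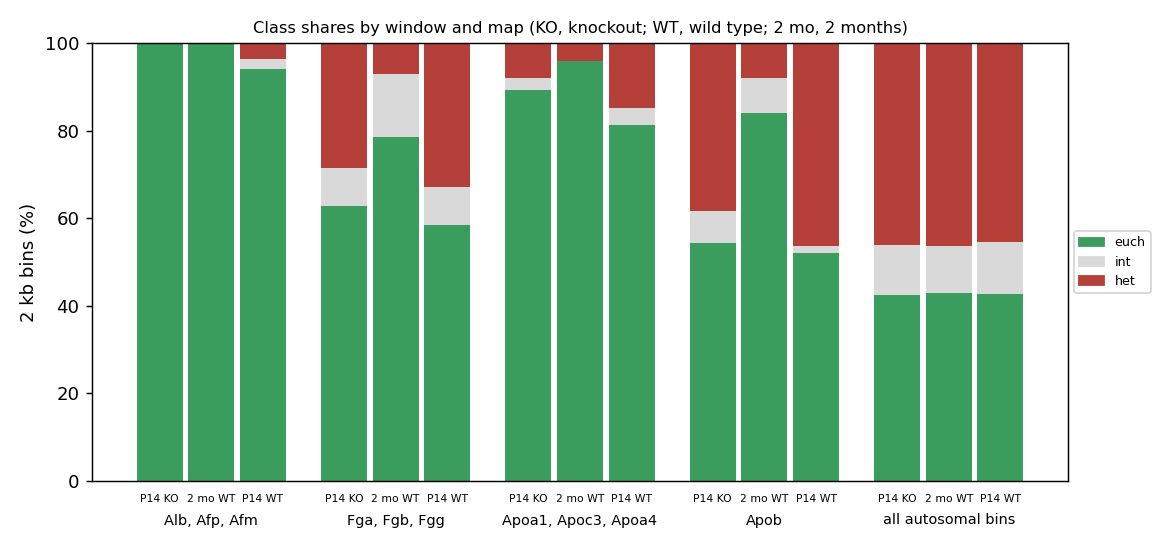
Stacked bars give the share of 2 kb bins (%) in each class, for each window and for all autosomal bins, with 1 bar per map. The euch share was above the autosomal share in every window and map and was lowest in the Apob window of the 2 P14 maps, at 54.4% in the knockout and 52.0% in the wild type.

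The Apob window differed most with age. It was euch in 68 of 125 bins in the P14 knockout (54.4%) and in 105 at 2 months (84.0%), against 65 in P14 wild type (52.0%). With 50 kb added on each side the knockout comparison turned round, at 51.4% in the knockout and 88.6% at 2 months, against 53.1% in P14 wild type, and with bins of 10 kb the knockout and P14 wild type were equal at 52.0%. Het bins of the window as given numbered 48 in the knockout and 10 at 2 months, against 58 in P14 wild type. Of autosomal stretches of 250 kb, 38.0% were at least as open in the knockout, 18.9% at 2 months and 38.7% in P14 wild type. The first 130 kb of the window were open in all 3 maps. The open domain ended at 8030000 in both P14 maps, with a length of 174 kb in the knockout and 172 kb in the wild type. At 2 months it ran from 7782001 to 8102000, over 320 kb. In the 100 kb on the low-coordinate side 40 of 50 bins were euch in the knockout and 50 at 2 months, against 38 in P14 wild type. On the high-coordinate side 17 were euch in the knockout and 48 at 2 months, against 26 in P14 wild type. The difference with age was thus not limited to the window.

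The 72 kb from 8030001 to 8102000 were euch in all 36 bins at 2 months, against 2 int and 34 het bins in P14 wild type. This was the longest stretch of differing bins in any of the windows. Farther along, the 9 bins from 8112001 to 8130000 held 4 euch and 5 int bins at 2 months, against 9 het bins in P14 wild type. The last 5 bins of the window, from 8140001 to 8150000, were int at 2 months and het in P14 wild type. In the P14 knockout only 2 shorter stretches differed, the 5 bins from 8058001 to 8068000, which were int, and the 5 from 8092001 to 8102000, of which 3 were euch and 2 int. All 10 were het in P14 wild type. Apob itself spans 39.2 kb, less than the 72 kb stretch, so at least part of that stretch lies outside the gene, and all of it may.

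Nearly all of these bins belonged to a het domain of 134 kb in P14 wild type, from 8034001 to 8168000. At 2 months 47 of its 67 bins were euch (70.1%), 10 int and 10 het. In the knockout 3 were euch (4.48%), 7 int and 57 het. P14 wild type had 952 autosomal het domains of at least this length, and 2.80% of their bins were euch at 2 months. A euch share of at least 70.1% at 2 months was reached by 2 of the 952, this domain included. For the knockout, 2.11% of the bins of those domains were euch, and 197 of the 952 had at least the share seen here.

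**Figure D3:**
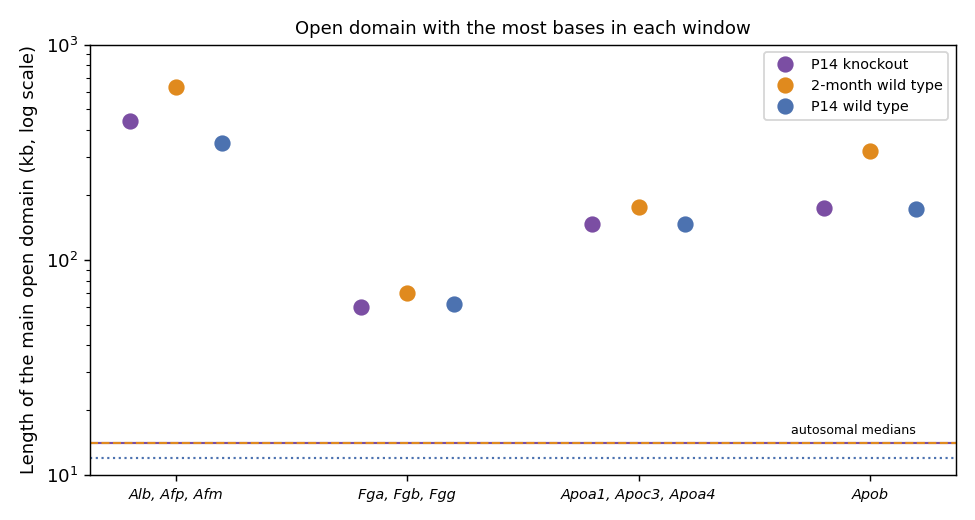
Points give the length in kb (log scale) of the open domain with the most bases in each window, by map, and lines give the median autosomal euch domain (14 kb in the P14 knockout and at 2 months, 12 kb in P14 wild type). All 12 domains were longer than the medians, from 60 kb at Fga, Fgb and Fgg in the knockout to 638 kb at Alb, Afp and Afm at 2 months. Picking the domain with the most bases in a window favours long domains, while the medians count every domain once. Lengths above the medians are therefore no particular trait of these loci.

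The comparison of the P14 knockout with P14 wild type asks how the loci stand without Ezh1 and Ezh2 at a fixed age. Over the 4 windows 29 of 355 bins moved towards euch (8.17%), below the 12.1% of all autosomal bins that did so, and 4 moved towards het (1.13%), against 12.5% of autosomal bins. In P14 wild type 69.6% of window bins were already euch, against 42.7% of autosomal bins, so a smaller share could move towards euch. Of the het bins alone, 16.8% were euch in the knockout, against 11% of autosomal het bins, though only 5.17% in the Apob window. These shares were not matched for the length of the het domains. The class was the same in the knockout and P14 wild type in 322 of 355 bins (90.7%). Long open domains kept their class elsewhere too, with 94.4% of bins euch in the knockout over autosomal euch domains of at least 62 kb. The 90.7% is therefore no particular trait of these loci. The bins that moved towards euch numbered 5 of 85 in the Alb window, 8 of 70 in the Fga window, 6 of 75 in the Apoa1 window and 10 of 125 in the Apob window. No window as given exceeded the autosomal share, the highest being 11.4% in the Fga window. This did not hold under every alternative. The Fga window was at 12.5% with 50 kb added on each side, at 14.3% with bins of 10 kb (11.9% of autosomal bins) and at 9.62% without bins at P14 wild-type domain edges (8.75% of autosomal bins), and the Apoa1 window was at 14.4% with 50 kb added. Of the 4 bins towards het, 3 were in the Fga window and 1 in the Apoa1 window. Trimming 10 kb from each end left 1.67% of the Fga window towards euch, and leaving out bins at P14 wild-type domain edges left 1.27% of the Alb window. With 50 kb added on each side, 16.7% of the Fga window and 9.14% of the Apob window moved towards het.

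The comparison of 2 months with P14 in wild type asks how the loci stand once the liver has matured. Over the 4 windows 89 of 355 bins moved towards euch (25.1%), against 13.6% of autosomal bins, and 2 moved towards het (0.563%), against 13.7% of autosomal bins. The windows differed widely among themselves. Bins towards euch made up 40.0% of the Apob window (50 of 125) and 32.9% of the Fga window (23 of 70). They made up 14.7% of the Apoa1 window (11 of 75), just above the autosomal share, and 5.88% of the Alb window (5 of 85), below it. The Alb share could not be higher, since those 5 bins were the only ones not euch in P14 wild type. The Apoa1 window fell below the autosomal share with bins of 10 kb (13.3% against 13.4%) and without edge bins (8.96% against 10.2%). It stayed above with 50 kb added (18.4%), with 10 kb trimmed (13.8%) and without domains under 5 kb (12.3% against 11.8%). Both bins towards het were in the Fga window. The Apob window held 50 of the 89 bins, and without it 39 of 230 bins (17.0%) moved towards euch. Windows wider by 50 kb on each side gave a share towards het of 25.0% for Fga, against 2.86% as given, and without bins at the edges of P14 wild-type domains the share towards euch was 1.27% for Alb.

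**Figure D4:**
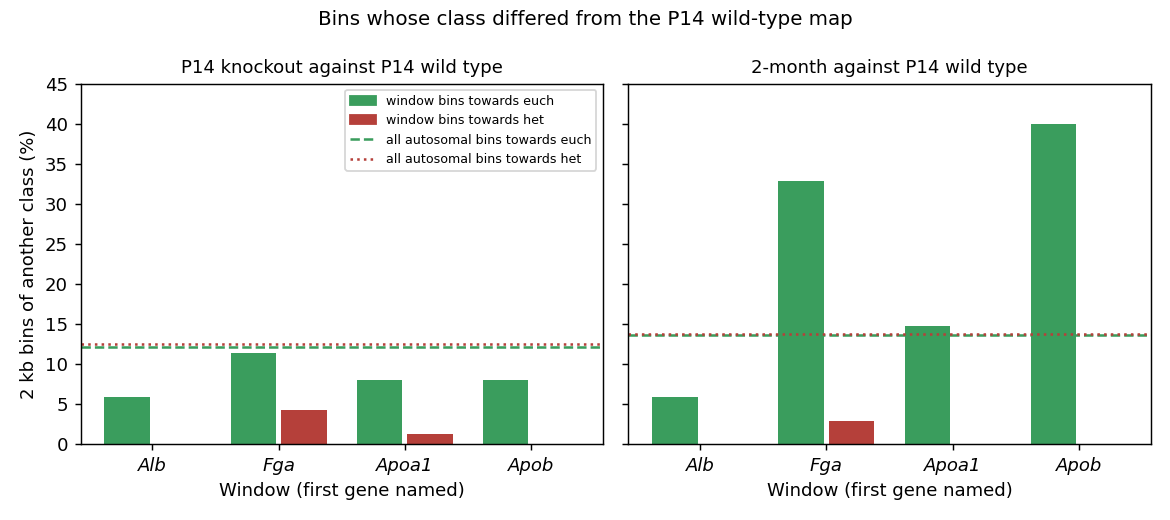
Bars give the share of bins (%) in each window that moved towards euch (green) or het (red) against the P14 wild-type map, in the P14 knockout (left) and at 2 months (right), and lines give the same shares over all autosomal bins. For the windows as given, all bars of the knockout lie below the autosomal lines, and at 2 months the bars towards euch of the Apob (40.0%), Fga (32.9%) and Apoa1 (14.7%) windows lie above the line at 13.6%. Bins already euch cannot move towards euch, and in P14 wild type they made up a larger share of each window than of the autosomes.

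A bin that is already open cannot move towards euch, so the bins were also followed by their class in P14 wild type. Of the 247 bins that were euch in P14 wild type, 244 were euch in the P14 knockout (98.8%) and 246 at 2 months (99.6%), against 79.9% and 77.3% of all autosomal euch bins. Open domains as long as those found here kept their class elsewhere too. Over all autosomal euch domains of at least 62 kb, the length of the shortest main one, 94.4% of bins were euch in the knockout and 94.9% at 2 months. Of the 95 het bins of the windows, 16 were euch in the knockout (16.8%) and 60 at 2 months (63.2%), against 11% and 14.2% of autosomal het bins. This background was not matched for domain length. Over autosomal het domains of at least 134 kb, 2.11% of bins were euch in the knockout and 2.80% at 2 months. Bins of shorter het domains were thus euch more often, and the het domains that meet the Alb and Fga windows were 6 to 30 kb long. By window the het bins that were euch at 2 months numbered 3 of 3 at Alb, 11 of 23 at Fga, 8 of 11 at Apoa1 and 38 of 58 at Apob. In the knockout they numbered 3 of 3, 4 of 23, 6 of 11 and 3 of 58 in the same order.

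The class was the same in all 3 maps in 80 of 85 bins of the Alb window (94.1%) and 64 of 75 of the Apoa1 window (85.3%), above the 65.0% of autosomal bins. It was the same in 43 of 70 bins of the Fga window (61.4%) and 75 of 125 of the Apob window (60.0%), below that share, and in 73.8% over the 4 windows together. Of the 262 constant bins 244 were euch and 17 het, the closed ones being 10 in the Apob, 4 in the Fga and 3 in the Apoa1 window. The longest stretch open in all 3 maps that meets each window was 350 kb long at Alb, with 112 kb inside the window, and 172 kb at Apob, with 130 kb inside. At Apoa1 it was 146 kb, with 114 kb inside, and at Fga all of its 60 kb lay inside. Among 29554 such stretches on the autosomes, 0.112%, 1.49%, 2.20% and 10.6% were at least as long, in the same order. Picking the longest stretch that meets a window favours long ones, while each autosomal stretch was counted once. These percentages are therefore no measure of how rare such loci are.

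Borders of open domains were also set side by side. The windows held 10 such borders in P14 wild type, 2 at Alb, 4 at Fga, 3 at Apoa1 and 1 at Apob. In the P14 knockout 5 of them lay on the same bin edge, 2 at Fga, 2 at Apoa1 and the one at Apob, while none of the 10 did at 2 months. Over all 81044 borders of euch domains on the autosomes, 17.2% lay on the same bin edge in the knockout and 10.6% at 2 months. With 10 borders these counts are a description of the 4 loci.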

How the data were processed

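The deposited data were 9 lists of intervals on mm9, 1 for each of 3 classes in each of 3 groups. Reads were handled with bcl2fastq 2.19.0.316 as well as STAR 2.4.2a, with bedtools, per the submitters' processing notes. How the classes were called is not given in the sources used here. The interval starts and ends deposited by the authors carry no signal. Each list is named in the labels under all 5 samples of its group, except that 1 of the 5 2-month samples does not name the euch list, so reading that list as a pool of its group is less certain. On the autosomes the lists left no gap and no overlap, and edges lay on the 2 kb grid.

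Bins were read with Python 3.11.15 and NumPy 2.4.6, and figures drawn with Matplotlib 3.10.9. With the order het, int, euch, a bin in a more open class than in P14 wild type counts as towards euch, and one in a more closed class as towards het. Backgrounds are all bins of the 19 autosomes. The counting was tested on simulated data. The text names all 10 members, and differing stretches of at least 5 bins or the longest of a window. Windows, members and lists were chosen with earlier results of these data known. Following single domains (50 kb or longer in P14 wild type) and leaving out the Apob window were chosen after the maps had been seen. Alternatives were judged by exact binomial intervals at 95% (SciPy 1.17.1). The planned list of other plasma protein genes was not analysed here, since the gene table at hand is for another build.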

Additional observations from a re-analysis of the deposited data

How the results depend on the processing

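The 28 window values, 4 autosomal shares and the totals over the 4 windows were recomputed, 146 alternative values in all. Of these 114 stayed within the exact binomial interval of the reported value and 32 left it. The interval treats bins as independent, which neighbouring bins are not, and it narrows with the number of bins. All alternatives of the autosomal shares left it, even 11.9% against 12.1%. The widened Fga window in the knockout stayed within it although its comparison turned round. These counts are therefore no measure of how firm the results are. Without the Apob window, an alternative added after the data had been seen, the share towards euch was 17.0% at 2 months. Windows wider by 50 kb on each side gave a euch share of 50.8% in the P14 knockout and 51.7% at 2 months, against 55.0% in P14 wild type, for Fga, which turned both of its comparisons round, and of 78.4% in the P14 knockout and 79.2% at 2 months, against 64.8% in P14 wild type, for Apoa1. They also gave shares towards het of 16.7% in the knockout and 25.0% at 2 months for Fga, and of 9.14% in the knockout for Apob. Both values for Fga were above the autosomal shares of 12.5% and 13.7%, and the one for Apob was below 12.5%. Windows trimmed by 10 kb gave a euch share of 100% at 2 months for Apoa1 and a share towards euch of 1.67% in the knockout for Fga. Without bins at P14 wild-type domain edges, the share towards euch in the Alb window was 1.27% in both comparisons, and the shares towards het were 0% for Apoa1 in the knockout and 0% for Fga at 2 months, as they also were with bins of 10 kb. Autosomal shares towards euch in the knockout were 10.0% without domains under 5 kb, 11.9% with bins of 10 kb, 8.75% without edge bins and 12.5% without shared int runs, and those towards het 10.4%, 12.3%, 8.55% and 12.9%. At 2 months they were 11.8%, 13.4%, 10.2% and 14.0% towards euch, and 11.9%, 13.5%, 9.77% and 14.1% towards het. No paired analysis was possible because each list pools the replicates of its group, and for the same reason no replicate could be left out. Depth behind the calls is unknown, so no value could be tied to it.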
